A study of Mus musculus with 6 samples.

Results

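The regions described here are the strong PU.1 sites that were already occupied before PU.1 was induced in iBN cells, a mouse line of granulocyte-macrophage progenitors with a PU.1-inducible system, grown in GM-CSF. They were chosen from 4 deposited PU.1 ChIP-seq peak lists. Peaks sharing at least 1 bp were joined into regions, and those kept had a peak in all 4 lists and a score of 300 or more in both uninduced lists. This gave 4680 of 82810 regions, and 24.1% of the 19391 regions with a peak in all 4 lists, which are called shared regions below. The uninduced scores chose the regions, so high uninduced scores, and any difference from the uninduced libraries, are given as a description with no test.

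The study had 2 PU.1 ChIP libraries from uninduced cells and 2 from cells given 1000 ng per ml of doxycycline for 72 hours. Doxycycline is an antibiotic used to switch on engineered genes. All 4 libraries came from the same iBN line, and the labels used here give neither the PU.1 alleles it carries nor whether replicates were separate cultures, so the spread between replicates may be technical. The lists held 68076 and 57336 peaks in induced replicates 1 and 2 and 31960 and 42951 in uninduced replicates 1 and 2. The read depth behind them is unknown. The 2 input libraries were not analysed here, so whether a region is also high in input was not tested.

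PU.1, encoded by Spi1, is a transcription factor of the ETS family that recognises purine-rich DNA around a GGAA core. It is needed for myeloid and B-lymphoid development, and its level affects which lineage a progenitor takes. In myeloid cells it binds both promoters and distal enhancers, where it helps to open chromatin and to admit partner factors. Positions below are in mouse build mm9, counted from 1. No annotation or sequence of mm9 was used here, so regions are named by position and not by gene.

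Uninduced replicate 1 stood apart from the other 3 libraries. Across the 19391 shared regions, Spearman's correlation of the scores was 0.953 between the induced replicates and 0.617 between the uninduced ones. Uninduced replicate 2 correlated with induced replicates 1 and 2 at 0.739 and 0.748, above its correlation with its own replicate, whereas uninduced replicate 1 correlated with them at 0.361 and 0.376. These correlations are across regions, which are not replicates, and each point holds peaks of the same 4 lists. The main counts, ranks and rank changes that use the uninduced libraries are therefore also given without each of them, with the rule resting on the other. The order of the named regions was not recomputed, and each of the 4 libraries' values is given for the leading ones.

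The threshold of 300 took the upper part of each uninduced list. A score of 300 or more was carried by 20.0% of the peaks of uninduced replicate 1 and 20.2% of those of replicate 2, and by 32.5% and 26.8% of the peaks of induced replicates 1 and 2. The score, deposited by the authors for each peak, starts at 50 and is comparable within a list only. The 3 members just inside it were chr8:48758258-48762975, with a lower uninduced score of 300.03, chr4:148547220-148548612 with 300.19 and chr9:120017032-120018079 with 300.25. The 3 shared regions just outside were chr1:92960658-92962328 with 299.91, chr7:73453737-73456746 with 299.76 and chr7:104229541-104232158 with 299.66. On both sides of the threshold the induced scores ranged widely: among the 3 inside, the scores in induced replicate 1 were 1669, 1518 and 249.9, and among the 3 outside 520.3, 1704 and 1322.

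Nearly every region with strong scores in both uninduced lists had a peak in both induced lists. Of 4689 such regions, 4680 (99.8%, 95% Wilson interval 99.6 to 99.9%) did, whereas the share was 75.6% (74.999 to 76.206%) of the other 19457 regions with a peak in both uninduced lists. Over all 24146 regions of both uninduced lists the share was 80.3%. The intervals cover counting error only, and no test was made because presence in the induced lists is part of the rule.

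Of the 9 strong regions left out, most lacked a single peak. In 6 of them the missing peak was that of induced replicate 2, in 1 it was that of induced replicate 1, and in 2 both were missing. All 9 were narrow, between 1023 and 1152 bp, and where an induced peak was called its score was between 69.1 and 173.4. In 8 of the 9 the authors' merged induced list did hold a peak. The exception was chr10:63100339-63101468, with uninduced scores of 558.0 and 315.5. With strength required in only 1 uninduced list, 99.8% of 8542 regions of uninduced replicate 2 and 97.5% of 6314 regions of uninduced replicate 1 had a peak in both induced lists.

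Shared regions were ranked by score within each list, so that 0 is the lowest and 100 the highest percentile, because the scores of different lists cannot be compared directly. In the induced libraries the strong pre-bound regions stood high, with median percentiles of 79.7 in replicate 1 and 80.3 in replicate 2. The other 14711 shared regions had medians of 40.4 and 40.1. In the uninduced libraries, where the rule set a floor, the strong regions had medians of 87.1 in replicate 1 and 85.8 in replicate 2. The quartiles in the induced libraries ran from 60.8 to 91.5 in replicate 1 and from 61.1 to 91.7 in replicate 2, so the 2 induced libraries gave nearly the same spread.

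**Figure D1:**
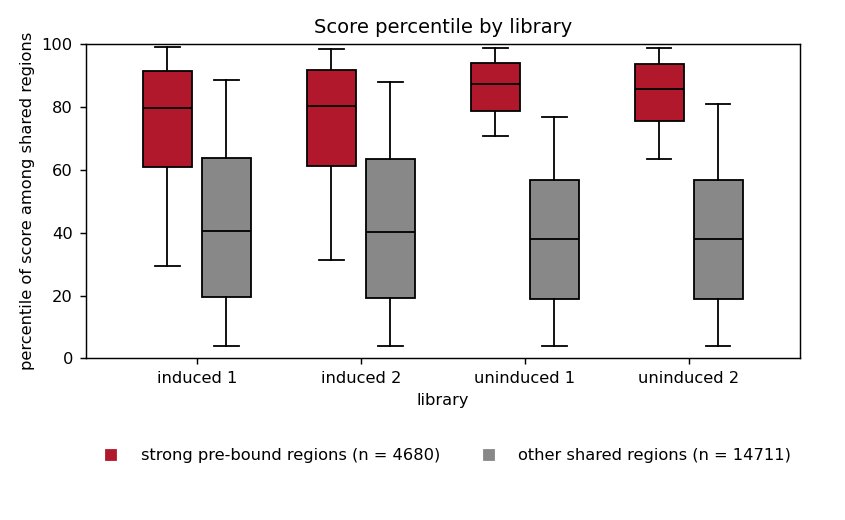
Score percentile among the 19391 shared regions (y axis) in each of the 4 libraries (x axis), for the 4680 strong pre-bound regions and the 14711 other shared regions; boxes are quartiles with the median, whiskers the 5th and 95th percentiles of the regions. The strong regions have medians of 79.7 and 80.3 in the induced libraries, and a tail that reaches below 50, which the rule removed in the uninduced libraries.

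In scores as deposited, the strong regions had a median of 1164 in induced replicate 1, 775.4 in induced replicate 2, 681.4 in uninduced replicate 1 and 656.3 in uninduced replicate 2. The lowest score of any of them was 65.0 and 58.1 in the 2 induced lists. Many of the highest peaks carried exactly 3100, though some scored above it, up to 3233 among the strong regions in induced replicate 2. What this value stands for is not stated, so the order of regions at and just above 3100 is uncertain. A score of 3100 or more was reached by 306 and 81 strong regions in induced replicates 1 and 2, and by 69 and 24 in uninduced replicates 1 and 2. Of the 14711 other shared regions, 75 and 15 reached it in the induced lists and none in the uninduced ones, whose scores the rule used. The whole lists held 417, 110, 69 and 24 such peaks in the same order. A score of 3100 or more was reached in all 4 libraries by 11 strong regions, in both uninduced libraries by 16, and in at least 1 library by 349.

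The induced order of the strong regions was reproducible and followed uninduced replicate 2 far more than uninduced replicate 1. Across the 4680 regions Spearman's correlation was 0.958 between the induced replicates. Against induced replicates 1 and 2 it was 0.663 and 0.685 for uninduced replicate 2 but 0.133 and 0.152 for uninduced replicate 1, and between the uninduced replicates it was 0.482. These are descriptions across regions, and the range of the uninduced scores was narrowed by the rule.

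**Figure D2:**
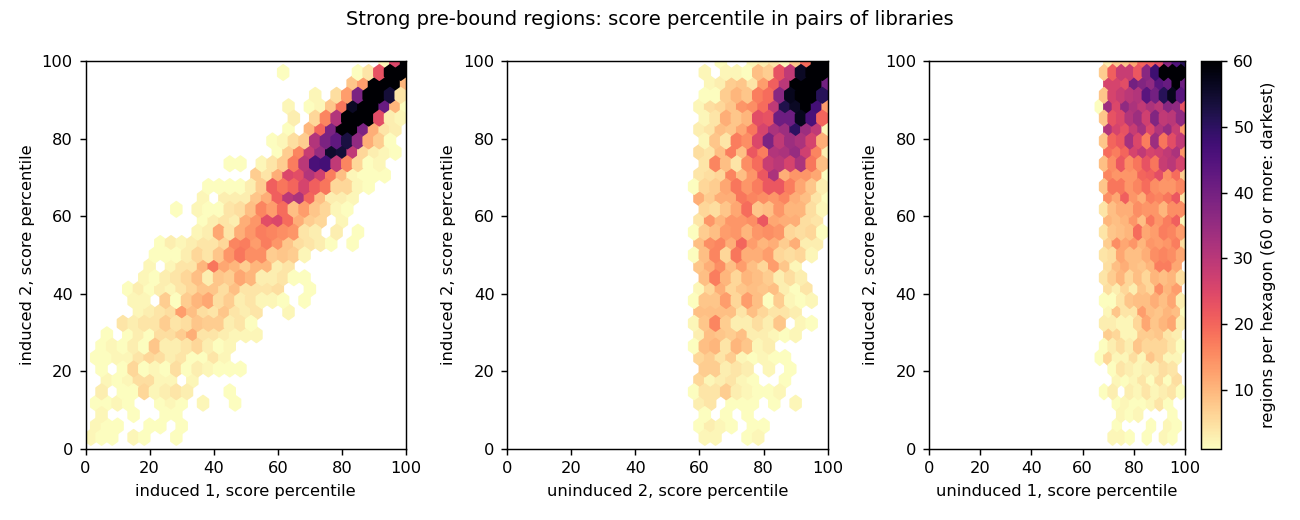
Score percentile of the 4680 strong pre-bound regions in pairs of libraries: induced replicate 2 (y axis) against induced replicate 1, uninduced replicate 2 and uninduced replicate 1 (x axes, left to right); colour gives the number of regions per hexagon. The left panel is a narrow diagonal (correlation 0.958), the middle one a broad diagonal (0.685) and the right one has little slope (0.152).

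The contrast of the uninduced replicates was as plain at the edge of the set. Shared regions with a score of 300 or more in uninduced replicate 2 only numbered 3219 and had median percentiles of 72.8 and 72.8 in induced replicates 1 and 2. Those that reached it in uninduced replicate 1 only numbered 1466 and had medians of 29.4 and 30.9, below the medians of 32.3 and 31.8 of the 10026 regions that reached it in neither. With the rule resting on uninduced replicate 2 alone and uninduced replicate 1 left out, 8525 regions qualified, at a mean of the 2 induced medians of 82.9. With uninduced replicate 2 left out, 6159 regions qualified, at a mean of 72.9. The read depth of the uninduced libraries is unknown, so it could not be compared between them.

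In the induced libraries the strong regions ranged from the top to the bottom of the shared regions, and more stood high than low. A percentile of 75 or more in both induced libraries was found for 2554 (54.6%), against 22.3% of all shared regions. A percentile below 50 in both was found for 599 (12.8%), against 46.1% of all shared regions, and 1527 lay between. These bounds were chosen after the values were seen. Without uninduced replicate 1 the high group made up 60.5% and the low group 7.82% of the regions that qualified, and without uninduced replicate 2 they made up 44.3% and 24.7%. With peaks of a score of at least 100 only, the 2 shares were 39.0% and 24.9%, and with lists of equal length 44.6% and 20.7%. For the 599 low regions the median scores were 302.8 and 205.3 in induced replicates 1 and 2, and 648.4 and 392.9 in uninduced replicates 1 and 2. The 2554 high regions had medians of 1767, 1168, 725.0 and 891.5 in the same order. The low regions were therefore nearly as high as the high ones in uninduced replicate 1, and lower in uninduced replicate 2. Their lower scores in the 2 induced libraries follow from how the groups were defined.

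The stronger a region was before induction, the more often it stood high afterwards. Of the 2246 regions with a lower uninduced score from 300 to under 500, 38.7% were at or above percentile 75 in both induced libraries and 21.8% were below 50 in both. Of the 1708 with 500 to under 1000, 61.6% were high and 6.26% low. Among the 652 with 1000 to under 2000 these shares were 85.7% and 0.307%. All 74 regions with a lower score of 2000 or more were high. None was low, and a count of 0 in 74 allows a share of up to 4.05%. This limit covers counting error only, since regions are not replicates. With classes cut from uninduced replicate 2 alone, the high share went from 39.5% in the lowest to 94.8% in the class from 1000, and the low share from 14.1% to 0.275%. With uninduced replicate 1 alone the high share went from 33.4% to 56.8% and the low share from 33.9% to 10.9% over the same classes. In the class from 2000, 78.5% of 363 regions were high and 1.65% low with uninduced replicate 1 alone. With uninduced replicate 2 alone, all 133 regions of that class were high. The classes are cut from the scores that the rule used, so this order is a description.

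**Figure D3:**
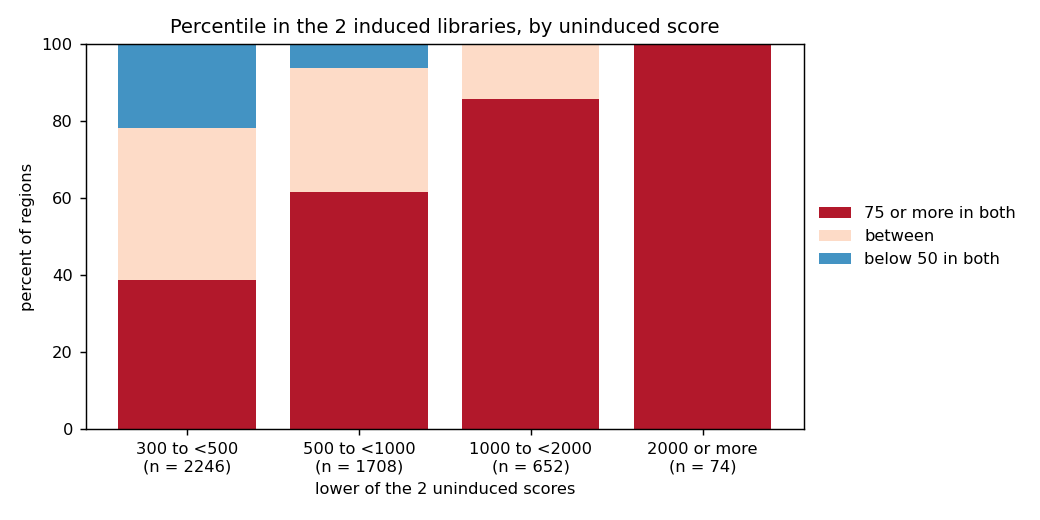
Percent of strong pre-bound regions (y axis) whose percentile in both induced libraries was 75 or more, below 50, or between, by the lower of the 2 uninduced scores (x axis). The high share rises from 38.7% in the lowest class to all 74 regions of the highest class, and the low share falls from 21.8% to none.

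Relative to the uninduced ranks, more of the strong regions stood lower than higher in the induced libraries. Both induced percentiles lay below both uninduced ones in 2540 regions (54.3%, 30.8% of all shared regions), and above both in 823 (17.6%, 30.6% of all shared regions). A set picked for high uninduced values can only lose rank at its top, so nothing is read from this difference. The median change, induced mean percentile minus uninduced mean percentile, was -6.04 points, with quartiles at -21.8 and 2.28. It was -4.55 points without uninduced replicate 1, where 62.3% of the regions that qualified lay lower and 27.0% higher in both induced libraries, and -13.5 points without uninduced replicate 2, where these shares were 70.1% and 24.2%.

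The 10 regions listed as strongest by the lower uninduced score were high in every library. Each had a lower uninduced score of 3100, and 16 regions reached 3100 or more in both uninduced libraries. The last places among the 10 were therefore filled from tied regions by position, and regions left out were as strong. The first was chr1:109479089-109481893, which scored 3100 and 2390 in the induced replicates 1 and 2, and 3100 and 3177 in the uninduced replicates. It was followed by chr19:8093916-8095477, scoring 3100 in both induced libraries and 3100 and 3154 in the uninduced ones, and by chr10:5743790-5746681, scoring 3100 in both induced libraries and 3137 and 3100 in the uninduced ones. The first of these 3 regions had nearly the same percentile in induced replicates 1 and 2, at 98.9 and 98.8. In the other 2 regions all 4 libraries were at 3100 or just above it. Next came chr12:77419405-77420998, the first of the 10 to be under 3100 in both induced libraries, with 2918 and 2387 there and 3100 and 3117 in the uninduced ones. The region at chr8:74531848-74533914 had uninduced scores of 3100 and 3116 and induced scores of 2808 and 1879, the lowest of the 10. The other 5 were chr2:22628538-22631443, chr1:181092530-181095024, chr10:98922007-98925102, chr11:3004333-3006432 and chr11:20011622-20014016, and each was at 3100 or more in all 4 libraries. Across the 10, percentiles ran from 97.2 to 98.9 in induced replicate 1 and from 97.4 to nearly 100 in induced replicate 2. In induced replicate 1 the many regions tied at 3100 share the percentile 98.9. The region at chr11:3004333-3006432 was the first region of its chromosome in these lists.

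The 5 regions with the largest rise in rank had all been close to the threshold before induction. The rule set a floor under the uninduced percentiles, and percentiles have a top. Only strong regions near that floor could therefore rise so far, and their place near the threshold is no finding. The largest rise was at chr11:75271731-75276279. Induced replicates 1 and 2 gave it scores of 3100 and 1582, and uninduced replicates 1 and 2 gave 360.4 and 313.7, which are percentiles of 98.9 and 95.6 against 73.6 and 61.2. The next 4 all lay on chromosome 19. At chr19:42163233-42166197 the induced scores were 2650 and 1404 and the uninduced ones 312.3 and 335.1. At chr19:12646204-12650731 they were 2864 and 1697 against 304.8 and 377.4. These regions were thus near the lowest uninduced scores the rule allows and at percentiles of 91.3 or more in both induced libraries. The last of them were chr19:16199982-16201625, with 4 gained regions within 10 kb, and chr19:42825974-42828883, with 2.

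The 5 regions with the largest fall were strong mainly in uninduced replicate 1. The region at chr9:35353961-35355038 scored 101.7 and 61.9 in induced replicates 1 and 2, and 1058 and 464.7 in uninduced replicates 1 and 2. The region at chr10:82910964-82912097 scored 70.0 and 65.4 with induction against 1323 and 353.0 without. At chr10:85705066-85706104 the scores were 77.5 and 70.0 against 1024 and 393.1. In each of them uninduced replicate 2 lay between the induced libraries and uninduced replicate 1. The others were chr10:78870083-78871245 and chr2:86015404-86016325. Across the 5, percentiles were 2.17 to 15.3 and 2.83 to 6.87 in induced replicates 1 and 2, 90.4 to 95.3 in uninduced replicate 1 and 66.0 to 78.3 in uninduced replicate 2. In the authors' merged lists the first of them scored 136.1 in the induced and 1307 in the uninduced list. None of the 5 had a gained region within 10 kb, against 36.8% of all strong regions and 24.2% of those below percentile 50 in both induced libraries. With 5 regions, nothing is read from this. The region at chr10:85705066-85706104 had 1 lost region, held by only the 2 uninduced lists, within 10 kb. The uninduced peaks of the 5 were between 621 and 1163 bp wide.

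Peaks of the strong regions were wider in the induced libraries. The median width of the highest-scoring peak was 1446 and 1273 bp in induced replicates 1 and 2, and 1146 and 1145.5 bp in uninduced replicates 1 and 2, so the 2 conditions did not overlap. For other shared regions the medians were 1152 and 1057 bp with induction against 985 and 972 bp without. The peak was wider in both induced than in both uninduced libraries in 2256 strong regions (48.2%), close to the 48.8% of all shared regions. It was narrower in both induced libraries in 253 (5.41%, against 5.84% of all shared regions). Widening was thus no more frequent in the strong regions than in shared regions as a whole. Width comes from the same peak calls as the score, so it carries no test.

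Widening did go with a high induced rank. In the 2554 high regions the median widths were 1783 and 1564.5 bp in induced replicates 1 and 2 against 1220 and 1295 bp in uninduced replicates 1 and 2, and 62.5% were wider in both induced libraries. In the 599 low regions the medians were 1045 and 978 bp against 1070 and 982 bp, and 16.0% were wider in both. The peak was narrower in both induced libraries in 18.03% of low regions and 1.72% of high regions. The median width of low regions thus differed little between the 2 conditions, while single regions went either way. Both sets are defined by induced scores, and a peak with a higher score is usually wider.

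**Figure D4:**
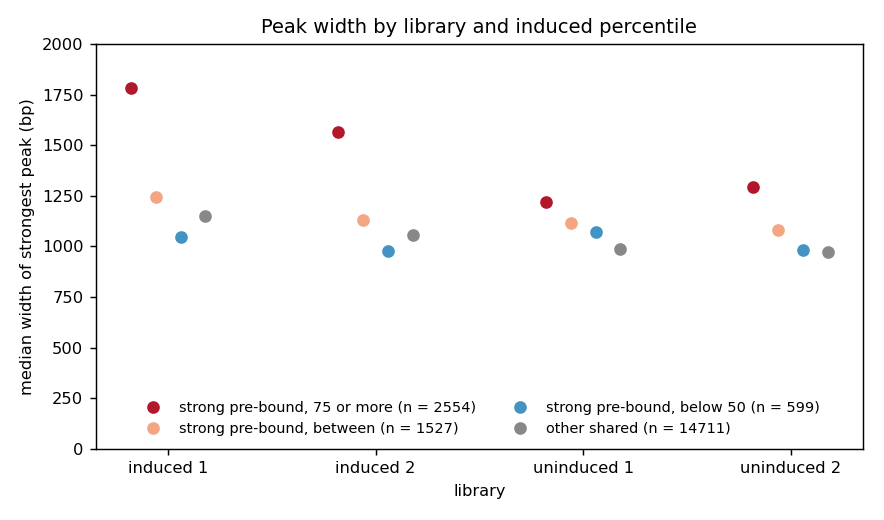
Median width of the highest-scoring peak in bp (y axis) in each library (x axis), for strong pre-bound regions split by their percentile in both induced libraries and for other shared regions. High regions go from 1220 and 1295 bp in the uninduced to 1783 and 1564.5 bp in the induced libraries, and low regions lie between 978 and 1070 bp in all 4.

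Midpoints of the highest-scoring peaks of a strong region lay a median of 59 bp apart between the induced replicates and 61.5 bp between the uninduced ones. Between an induced and an uninduced library the medians were 71.5 to 78.5 bp. Distances over 500 bp were found in 4.19% of strong regions between the uninduced replicates and in 6.18% between the induced ones. Between an induced and an uninduced library they were found in 5.92 to 10.3%, so not every such pair exceeded the induced replicates. Among the other shared regions these shares were 3.93%, 3.58% and 4.00 to 7.48%. The share was higher in the strong regions in every pair, though only slightly between the uninduced replicates. Strong regions also spanned more, at a median of 1557 against 1222 bp, and whether the distances follow from this was not tested. The midpoint is that of the called interval, since the lists give no summit.

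Most strong regions were a single peak in every list. Of the 4680, 3.10% and 7.93% held 2 or more peaks in induced replicates 1 and 2, and 6.45% and 9.87% did in uninduced replicates 1 and 2. Split regions were less frequent among the other shared regions, at 2.03% and 4.71% with induction and 2.67% and 5.05% without. From the first to the last base of its joined peaks a strong region spanned a median of 1557 bp, and another shared region 1222 bp. A span of 3 kb was reached by 516 strong regions (11.0%), against 4.63% of the others. In those 516 broad regions, 43.4% and 52.7% held 2 or more peaks in uninduced replicates 1 and 2, against 14.9% and 43.4% in induced replicates 1 and 2. Their median percentiles in induced replicates 1 and 2 were 95.3 and 94.0, with 86.8 and 90.8 in uninduced replicates 1 and 2. The median width of their highest-scoring peak was 3514 and 2917.5 bp in induced replicates 1 and 2, and 1542.5 and 1868 bp in the uninduced ones. The 3 kb limit thus acted largely through the induced peaks. Width and score come from the same peak calls, so the high induced percentiles of this set are no separate finding. The widest was chr19:5835070-5851434, with 1 peak of 16365 bp in induced replicate 1 and 1 of 12317 bp in induced replicate 2, but 3 peaks in each uninduced library, the highest-scoring of 5476 and 1888 bp. Its induced scores were 3100 and 2893, and its uninduced scores 1652 and 370.7.

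The position of gained regions was not used by the rule. A gained region is one that both induced lists hold and neither uninduced list does. Of the strong regions, 1724 (36.8%, 95% Wilson interval 35.5 to 38.2%) had a gained region within 10 kb, edge to edge, against 33.1% (32.4 to 33.9%) of the other shared regions. The difference of 3.70 percentage points turned to -0.762 with lists of equal length. Regions are not replicates, so these intervals describe counting error in these lists.

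Within the strong regions the share differed more. A gained region lay within 10 kb of 42.1% (40.2 to 44.0%) of the 2554 high regions, of 33.0% (30.7 to 35.4%) of the 1527 between, and of 24.2% (20.9 to 27.8%) of the 599 low ones. High regions thus exceeded low regions by 17.9 percentage points, and by 10.3 with lists of equal length. The difference was 17.2 points without uninduced replicate 1 and 23.9 without uninduced replicate 2. High regions also had another shared region that was not strong within 10 kb more often, in 44.6% (42.6 to 46.5%) against 33.6% (29.9 to 37.4%) of low regions. Over all shared regions this share was 36.8%, which the interval of the low regions holds. Gained and high regions are both defined through the induced lists, so the 2 measures are not independent. The most gained neighbours, 5 within 10 kb, were found at chr4:114728441-114730287, where the induced scores were 728.2 and 542.2 and the uninduced ones 329.8 and 431.7.

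**Figure D5:**
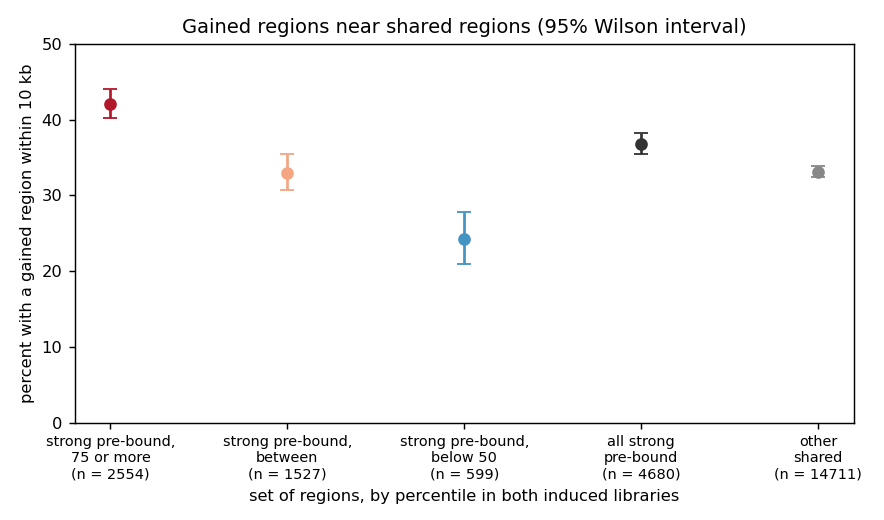
Percent of regions with a gained region within 10 kb (y axis, with 95% Wilson intervals for counting error) for strong pre-bound regions by their percentile in both induced libraries, for all 4680 strong regions, and for other shared regions. The share falls from 42.1% in high to 24.2% in low regions, on either side of the 33.1% of other shared regions.

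Lost regions, which only the 2 uninduced lists hold, were rare near the strong regions. A lost region lay within 10 kb of 93 of them (1.99%, 1.62 to 2.43%) and of 1.81% (1.61 to 2.04%) of the other shared regions, and the intervals overlap. Regions are not replicates, so no test was made and no difference is read from these shares. The lists held 3150 lost regions against 18414 gained ones, so fewer lost regions could lie near any region.

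Another strong region lay within 10 kb of 960 strong regions (20.5%, 95% Wilson interval 19.4 to 21.7%), and a strong region lay that near to 15.3% (14.8 to 15.9%) of the other shared regions. Joined at gaps of up to 10 kb, the 4680 regions made 4166 groups, of which 3720 were single regions, 392 were pairs and 54 held 3 or more. The median gap between neighbours was 136116 bp. The largest groups held 5 regions each. That at chr9:58093509-58117932 spanned 24424 bp and held no gained region, and its median percentiles were 53.6 and 63.2 in induced replicates 1 and 2 and 94.6 and 77.6 in uninduced replicates 1 and 2. That at chr8:3647843-3677996 spanned 30154 bp and held 1, with induced medians of 92.8 and 82.8 and uninduced medians of 81.7 and 91.6. These groups were singled out after their values were seen, and the first stands lower with induction in both replicates than the second.

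The share of shared regions that were strong before induction was much the same on most chromosomes. It ran from 17.4% (46 of 264, 95% Wilson interval 13.3 to 22.5%) on X to 27.0% (189 of 701, 23.8 to 30.4%) on chromosome 16. X was the only 1 of 20 chromosomes whose interval did not hold the overall 24.1%. The median change of rank was negative on 19 of the 20 and was 0.41 points on chromosome 19, where 119 of 166 strong regions (71.7%) were high and 10 (6.02%) low. Strong regions between 85 and 120 Mb of chromosome 3 numbered 60, with a median change of 3.79 points, against -8.36 points for the 142 on the rest of that chromosome. Without uninduced replicate 1 the medians were 0.93 points on chromosome 19, 3.76 in the segment and -7.36 on the rest of chromosome 3. Without uninduced replicate 2 they turned to -3.94 on chromosome 19 and -8.01 in the segment, with -21.9 on the rest. The rank shifts of chromosome 19 and of this segment were known when these values were computed, so they are no independent support for them.

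Every strong region had a peak in both of the lists that the authors had merged, 1 per condition, as did nearly all other shared regions (99.93% in the induced and 99.92% in the uninduced list), so this does not set the strong regions apart. The median score was 1810 in the merged induced and 1199 in the merged uninduced list, and 1032 (22.1%) and 335 (7.16%) of the regions reached 3100 or more. In the merged induced list 97.4% scored 300 or more. These shares were not taken for the other shared regions, so whether they set the strong regions apart was not tested. Scores of different lists cannot be compared directly, so each median describes its own list only. The merged lists come from the same libraries and give no independent replicate.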

How the data were processed

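PU.1 ChIP-seq peak lists of 4 libraries and 1 merged list per condition were used. Per the submitters' processing notes, Trim Galore, Bowtie and MACS 1.4.1 were used with mouse build mm9. Settings, the control for peak calling and the way of merging were not stated there. Each deposited list has 5 columns, of which the last is a peak score as the authors deposited it. Its scale is not stated, and it was used to rank and filter within lists.

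Regions, percentiles, widths and distances were computed with Python 3.11.15, NumPy 2.4.6, pandas 2.3.3, SciPy 1.17.1 and matplotlib 3.10.9, and the code was tested on simulated lists. The members and lists of results were chosen with earlier results of these data known. Regions named are the 10 highest by the lower uninduced score (ties by the sum of the uninduced, then of all scores, then by position), the 5 largest rises and 5 largest falls of mean percentile without overlap between conditions, 3 on each side of the threshold, and the widest. Others were chosen after their values were seen. The planned counts at transcription starts, PU.1 motifs and fixed gene lists were not run, since they need mm9 annotation or sequence. No batch is labelled. Alternatives were other overlaps, thresholds, list lengths, windows, libraries and the merged lists. Splits by induced percentile, and rank changes and score classes without a library, were added after the data were seen.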

Additional observations from a re-analysis of the deposited data

How the results depend on the processing

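No paired analysis was possible because no result comes from a test between conditions. Under the alternatives the number of strong regions was 2434 with a score of 500, and 11129 with the merged lists, and it ran from 4691 to 8525 as each library was left out; the last is the value without uninduced replicate 1. The mean of the induced median percentiles, 80.0, was 80.4 with an overlap of 50% of both intervals, 73.6 with a score of 200, 86.7 with a score of 500, 70.1 with peaks of at least 100, 74.4 with lists of equal length and 76.9 with the merged lists. As each library was left out it ran from 72.9 to 82.9. The mean induced peak width, 1359.5 bp, was 1510 bp with the merged lists, and 1236 to 1445 bp as each library was left out. The mean percent of regions with 2 or more peaks in an induced list, 5.51%, was 0.139% with the 50% overlap, which splits such regions by construction, and 0.683% with the merged lists, and 1.73 to 4.86% as each library was left out. The percent of strong regions with a gained region within 10 kb was 35.3% with a score of 200, 38.8% with 500, 30.9% with peaks of at least 100, 15.3% with lists of equal length, 57.7% with the merged lists, 11.8% within 2 kb, 79.4% within 50 kb, and 38.4 to 54.2% as each library was left out. Its difference from other shared regions was -0.762 percentage points with lists of equal length, and the cause was not tested. Percentiles move with the number of shared regions ranked, and the classes rest on fewer lists when a library is left out. Read depth is unknown, so an absent peak shows only that none was called.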
